A study of Mus musculus with 18 samples.

Results

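Interleukin-22 (Il22) and its paralogue Il22b, a second copy of the same cytokine gene in the mouse, were followed across 6 groups of CD8 T cells. Both genes were found by their symbol, Il22 with the identifier ENSMUSG00000074695 and Il22b with ENSMUSG00000090461, and they are 2 of the 23414 genes in the deposited expression table. They were chosen from these same libraries because both were high in cells labelled KO and stimulated with antigen, and low again when a kinase inhibitor was added. Their levels are therefore described without a test.

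PolyA RNA was sequenced in bulk from CD8 T cells that had been sorted at the end of a spleen-cell culture. All mice were P14, which means that a transgene gives their CD8 T cells a T cell receptor for gp33, a peptide of lymphocytic choriomeningitis virus. Mice labelled KO also carried a knockout of TrIP that the labels give as restricted to CD8 cells, and the others were wild type (WT). TrIP is the product of Pik3ip1 and restrains phosphoinositide 3-kinase (PI3K), the lipid kinase that signals downstream of the T cell receptor and of cytokine receptors. Every culture lasted 24 h and held 50 U/ml IL-2 with 2 ng/ml IL-12. For each genotype, 3 libraries came from cells given 100 ng/ml gp33 together with IC87114 (10 µM), which inhibits the delta isoform of PI3K. Another 3 came from cells given the same gp33 alone, and 3 from cells given no peptide. The labels give no Cre driver, animal identity, age or sex for the cultures. The labels do not say that replicates came from separate mice, so p-values measure the spread between libraries, which may be technical.

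IL-22 is a cytokine of the IL-10 family made by T cells and innate lymphoid cells. It acts mainly on epithelial cells, through a receptor made of IL-22RA1 and IL-10RB, and is known for roles in barrier defence and tissue repair. In T helper cells its gene is induced by IL-23, IL-6 and IL-21, which act through STAT3. IL-1 and the aryl hydrocarbon receptor (AHR), among other factors, also promote its expression. CD8 T cells can make IL-22 as well.

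The 2 copies lie close together on mouse chromosome 10 in opposite orientation, with 5 exons each. In the GRCm38 assembly, Il22 spans chr10:118204942-118210047 on the plus strand and Il22b spans chr10:118289629-118295038 on the minus strand, where the annotation names it Iltifb. The annotated transcripts are 1110 bases for Il22 and 1111 bases for Il22b, and they are 97.3% identical over 1111 aligned positions, with 29 mismatches and 1 gap. Their coding sequences of 540 bases are 98.3% identical. The coding part of exon 1, which holds the start codon, is printed for both copies because it shows how little separates them. It occupies chr10:118204991-118205176 (plus strand) in Il22 and chr10:118294804-118294989 (minus strand) in Il22b, in the GENCODE M21 annotation of GRCm38. Capitals mark the bases that differ.
Il22: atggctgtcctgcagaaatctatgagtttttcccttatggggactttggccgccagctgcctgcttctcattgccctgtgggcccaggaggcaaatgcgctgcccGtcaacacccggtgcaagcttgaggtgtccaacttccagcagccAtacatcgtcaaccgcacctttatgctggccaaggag
Il22b: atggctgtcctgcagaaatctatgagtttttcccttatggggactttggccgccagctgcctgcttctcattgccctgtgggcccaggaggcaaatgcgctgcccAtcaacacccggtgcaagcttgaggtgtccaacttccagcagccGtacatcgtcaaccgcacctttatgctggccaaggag
Counted from 1 at the A of the start codon, with the Il22 base first and the Il22b base last, the differences in exon 1 are G106A and A150G. The other 7 coding differences are C188T, T213C, C217T, G258A, T474C, G486A and T492C.

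**Figure D1:**
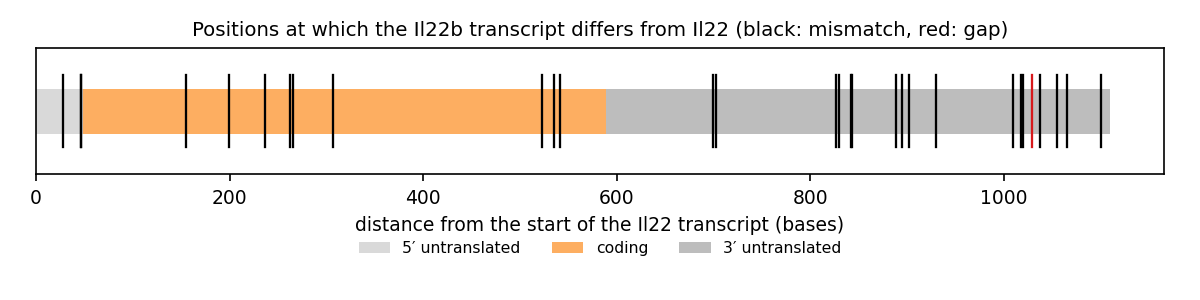
Positions at which the annotated Il22b transcript differs from the Il22 transcript, drawn by distance in bases from the start of the 1110-base Il22 transcript. Black lines are mismatches, the red line is the gap, and the bar shows the 5′ untranslated, coding and 3′ untranslated parts. There are 3 differences in the 49 bases before the coding sequence, 9 in the 540 coding bases and 18 in the 521 bases after it.

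The map of differences along the transcript bears on how far the 2 genes could be told apart. The longest stretch without a difference is 215 bases. Of all windows of 50 bases in the Il22 transcript, 41.0% occur unchanged in Il22b. For windows of 100 and 150 bases the share is 20.4% and 7.70%. How the authors assigned reads that fit both copies, and how long the reads were, is not given in the sources used here, so the split of reads between Il22 and Il22b is uncertain and their sum is given as well.

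The sequences before the 2 start sites are alike over only part of their length. They are shown because the 2 genes were high in the same libraries. Each is the 250 bases before the start site in RefSeq (GRCm38.p6), at chr10:118204714-118204963 (plus strand) for Il22 and chr10:118295039-118295288 (minus strand) for Il22b. Capitals mark bases that are identical in the 1 block that aligned.
Il22 upstream: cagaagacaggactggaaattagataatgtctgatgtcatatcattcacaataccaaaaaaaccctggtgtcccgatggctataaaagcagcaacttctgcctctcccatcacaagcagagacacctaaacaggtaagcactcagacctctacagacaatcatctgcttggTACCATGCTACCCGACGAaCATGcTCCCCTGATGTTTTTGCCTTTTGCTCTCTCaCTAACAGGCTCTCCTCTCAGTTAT
Il22b upstream: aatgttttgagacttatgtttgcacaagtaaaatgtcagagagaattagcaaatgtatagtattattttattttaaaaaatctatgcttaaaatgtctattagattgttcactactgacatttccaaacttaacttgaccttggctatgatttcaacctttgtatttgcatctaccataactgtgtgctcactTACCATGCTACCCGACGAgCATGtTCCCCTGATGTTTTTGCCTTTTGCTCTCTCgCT
That block covers 102 aligned positions, 98 of them identical (96.1%), from position -79 to 23 relative to the start in Il22 and from -57 to 45 in Il22b. Upstream of the block the sequences did not align. The RefSeq start of Il22 lies 22 bases inside the GENCODE transcript, while that of Il22b is at the GENCODE start, so the last 22 bases of the Il22 window are transcribed in that annotation and positions in the 2 windows are counted from unlike starts. On either strand of the 250 bases, the letters TATAAA of a TATA box occur at -170 in Il22 and not in Il22b, against 12.4% of 32851 mouse promoters of the same length. The NFAT core GGAAA occurs at -236 in Il22 and at -130, on the opposite strand, in Il22b, against 55.6% of promoters. The AP-1 letters TGANTCA (6.75%) and the AHR core GCGTG (28.2%) are in neither window.

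The deposited values were used as log2(value + 1) and turned back into normalized values, whose sum per library was 521782 to 630652. Sequencing depth is unknown. Genes listed above 0 numbered 18935 to 21214 per library, and 26.0% to 32.2% of the summed values came from protein-coding genes. The mean correlation of a library with its own group was 0.961 to 0.996, lowest for replicate 2 of the WT group with gp33 and IC87114. CD8 T cell markers were high throughout, with a summed value over 5 markers of 430 to 1342.

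Pik3ip1, the gene that should be lost in KO cells, went against the label. With gp33 and IC87114 its normalized value was 2.51, 2.58 and 2.18 in the libraries labelled KO, against 0.656, 0.616 and 0.624 in WT libraries. With gp33 alone it was 1.53, 1.67 and 1.63 in the libraries labelled KO, against 0.863, 0.773 and 0.655 in WT libraries. Without peptide it was 74.6, 74.9 and 78.9 in the libraries labelled KO, against 31.0, 33.4 and 28.5 in WT libraries. The libraries labelled KO were above all WT libraries in each condition, and a value per gene cannot show whether the deleted exons were read. Every direction between genotypes below is one between libraries as labelled.

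Il22 RNA was abundant in a single group. In the libraries labelled KO, its normalized value was 0.0161, 0.220 and 0.0168 with gp33 and IC87114, against 6.14, 11.2 and 7.36 with gp33 alone, and it was listed at 0, 0.0101 and 0 without peptide. In WT libraries, it was 0.00968, 0 and 0.123 with gp33 and IC87114, 0, 0.103 and 0 with gp33 alone, and 0 in all 3 libraries without peptide. The 3 gp33 libraries labelled KO stood above the other 15, the highest of which was at 0.220. Il22 was listed above 0 in 10 of the 18 libraries and reached 1 in only those 3.

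Il22b followed the same pattern at a lower level. In the libraries labelled KO, its normalized value was 0.00760, 0.0539 and 0.0477 with gp33 and IC87114, against 1.89, 2.70 and 2.32 with gp33 alone, and it was listed at 0, 0 and 0.0109 without peptide. In WT libraries, it was 0.00913, 0.0212 and 0 with gp33 and IC87114, 0.0237, 0 and 0.0283 with gp33 alone, and 0, 0.00996 and 0 without peptide. The same 3 libraries stood above the other 15, the highest of which was at 0.0539. Among those 3, the order of the libraries was the same for both genes, with replicate 2 highest and replicate 1 lowest.

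**Figure D2:**
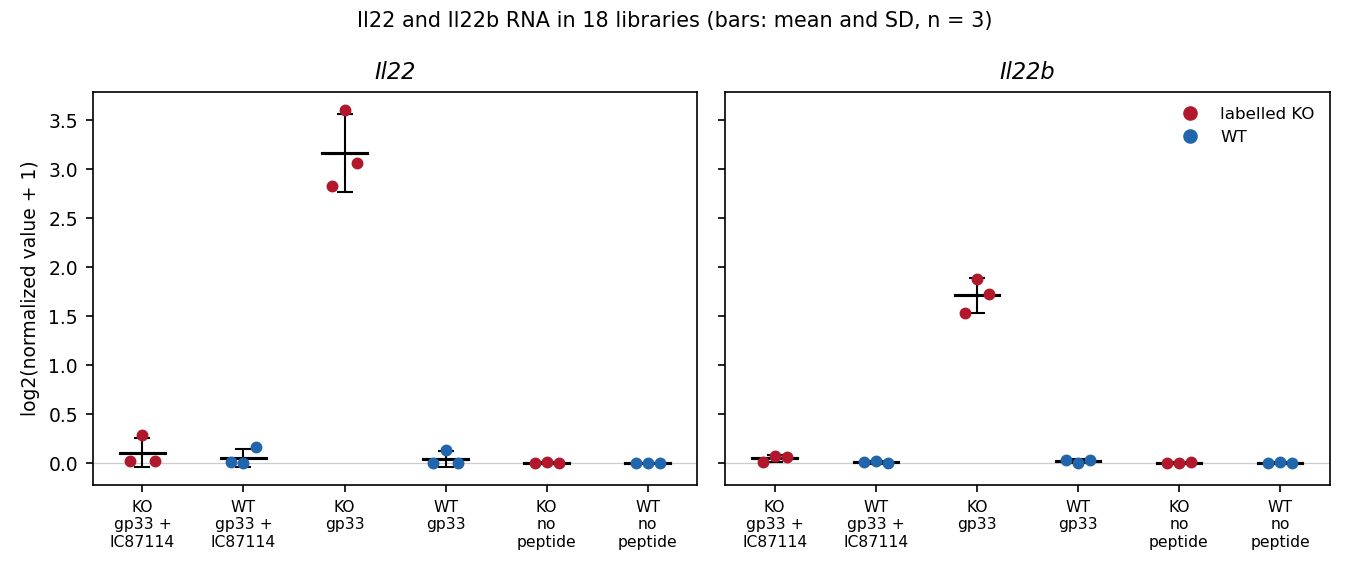
Il22 (left) and Il22b (right) in each of the 18 libraries, as log2(normalized value + 1), with the groups along the horizontal axis. Points are libraries (red labelled KO, blue WT), and bars are the mean and SD of 3 libraries. The 3 libraries labelled KO with gp33 alone lie above all others in both panels.

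As a description of the contrasts that chose the genes, the mean normalized value of Il22 was 8.23 ± 2.64 (SD, n = 3) in gp33 libraries labelled KO and 0.0344 ± 0.0595 in gp33 WT libraries. That is a difference of 3.12 in mean log2(value + 1), which ranked 12 from the top among the 10257 genes tested. Il22b averaged 2.30 ± 0.403 (SD, n = 3) and 0.0173 ± 0.0152 in the same groups, a difference of 1.69 (rank 74). Within the libraries labelled KO, gp33 against no peptide gave 3.16 for Il22 and 1.71 for Il22b. Adding 1 before the log makes these differences smaller than the ratio of the means.

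With IC87114, the level in the libraries labelled KO was a small fraction of that with gp33 alone. The mean with gp33 and IC87114 was 0.0844 ± 0.118 (SD, n = 3) for Il22, or 1.03% of the gp33 mean, and 0.0364 ± 0.0251 (SD, n = 3) for Il22b, or 1.58%. The differences in mean log2(value + 1) were -3.06 for Il22, which ranked 14 from the bottom of the 10257 genes, and -1.66 for Il22b (rank 103). In WT libraries, where there was little RNA of either gene to begin with, the same differences were 0.01 for Il22 and -0.01 for Il22b, and the 2 groups overlapped. In bulk RNA, fewer cells that make a transcript and less of it per cell cannot be told apart.

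Il22b made up a steady share of the pair where the pair was abundant. The share of Il22b in the sum of both genes was 23.5%, 19.4% and 24.0% in the 3 gp33 libraries labelled KO, with a mean of 22.3% ± 2.51 (SD, n = 3). The transcripts have nearly the same length, so the share needs no length correction, but it rests on how reads common to both copies were divided. The sum itself was 8.03, 13.9 and 9.68 in those libraries. In the other groups both genes were so low that the share ran from 0% to 100% between libraries of 1 group and is not interpreted.

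Outside the gp33 group labelled KO, both genes were near 0 in every group. No test is given for differences between these groups, because both genes reached the level for testing (a value of at least 1 in 3 libraries) through the gp33 libraries labelled KO alone and the spread of those libraries sets the standard error of the fit. With gp33 and IC87114, libraries labelled KO minus WT gave a difference in mean log2(value + 1) of 0.05 for Il22 and 0.04 for Il22b, and the 2 groups overlapped for both genes. The Il22 difference was -0.0366 when replicate 2 of the inhibitor group labelled KO was left out. Without peptide, the same differences were 0.0048 for Il22 and 0.00043 for Il22b. In WT libraries, gp33 minus no peptide gave 0.05 for Il22 and 0.02 for Il22b.

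Traces of Il22 were listed in the inhibitor libraries. In libraries labelled KO, gp33 with IC87114 minus no peptide gave 0.11 for Il22 and 0.05 for Il22b in mean log2(value + 1). For Il22 the 3 inhibitor libraries labelled KO, at 0.0161, 0.220 and 0.0168, were all above the 3 without peptide, the highest of which was at 0.0101. For Il22b these groups overlapped. All these values are near 0 at an unknown depth, and 7229 of the 10257 genes tested were called in this contrast. The separation for Il22 is therefore not interpreted. In WT libraries, the same contrast gave 0.06 for Il22 and 0.01 for Il22b.

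In order of the mean, Il22 was highest with gp33 labelled KO (8.23), then gp33 and IC87114 labelled KO (0.0844), gp33 and IC87114 WT (0.0441), gp33 WT (0.0344) and no peptide labelled KO (0.00335), with no peptide WT listed at 0. For Il22b the order after the top group was gp33 and IC87114 labelled KO (0.0364), gp33 WT (0.0173), gp33 and IC87114 WT (0.0101), no peptide labelled KO (0.00362) and no peptide WT (0.00332). Below the top group, each pair of neighbours in either order overlapped between libraries.

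The receptor side of the pathway was sparse in these cells. Of 7 chains of the IL-22 and IL-10 family receptors, 5 were in the table and 2 were tested. Il10rb encodes the chain that the IL-22 receptor shares with the IL-10 receptor. With gp33 its normalized value was 2.97, 3.65 and 3.39 in libraries labelled KO, against 1.85, 1.76 and 1.82 in WT libraries, with no overlap. It was called higher, by 0.62 (SE 0.08, limma adjusted p = 8.19e-05), where 14.9% of all genes tested were called higher and 9.09% lower. With IC87114 in libraries labelled KO it was 1.74, 1.94 and 1.95, and it fell by 0.59 relative to gp33 alone (SE 0.08, limma adjusted p = 0.000107), where 9.17% of all genes were called higher and 19.3% lower. Il10ra, the other chain of the IL-10 receptor, was also lower with the inhibitor (-0.42, SE 0.11, adjusted p = 0.00963), and between the gp33 groups it differed by -0.03 (adjusted p = 0.874). Il22ra1, which gives the IL-22 receptor its specificity, and Il22ra2, which encodes a soluble binding protein of IL-22, were not analysed here.

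Relatives of IL-22 in the IL-10 family were low. Il10 and Il24 were the 2 of 6 listed members in the table, and Il24 alone was tested. Il24 was 0.206, 0.255 and 0.152 with gp33 and IC87114 in libraries labelled KO, against 0.524, 1.06 and 0.470 with gp33 alone, and in gp33 WT libraries it was 0.874, 1.24 and 1.18. It was lower in gp33 libraries labelled KO than in WT (-0.33, SE 0.11, limma adjusted p = 0.0396). That call ended with a pseudocount of 0.1 or with only the 6 libraries compared. It also ended without replicate 1 or 3 of the gp33 group labelled KO or replicate 2 or 3 of the gp33 WT group. Over all these settings the adjusted p was up to 0.167. Il10 was 0.318, 0.417 and 0.0758 in gp33 libraries labelled KO and 0.0916, 0.0474 and 0.00746 in gp33 WT libraries, too low to be tested.

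Receptors through which cytokines induce Il22 were measured next. Of 9 listed chains 7 were tested. Between the gp33 groups, 2 were higher in libraries labelled KO and 0 lower, against 14.9% and 9.09% of all genes, and the median difference of the list was 0.04 against 0.003 over all genes. Il21r, the specific chain of the IL-21 receptor, was 3.8, 4.34 and 4.12 with gp33 in libraries labelled KO, against 1.53, 1.53 and 1.56 in WT libraries. It was higher by 1.00 (SE 0.07, limma adjusted p = 1.91e-07), and the groups did not overlap. Il7r, the IL-7 receptor chain, was higher by 0.97 (SE 0.12, adjusted p = 3.09e-05). With IC87114 in the libraries labelled KO, 3 of the 7 were lower and 1 higher, against 19.3% and 9.17% of all genes. Il7r fell by 1.02, Il21r fell by 0.85 and Il12rb2, a chain of the IL-12 receptor, fell by 0.32, while Il2rg, the chain common to several cytokine receptors, rose by 0.36. With a pseudocount of 0.1 the Il12rb2 call was lost (adjusted p = 0.0622). In WT libraries with IC87114, 3 of the 7 were also lower and 1 higher, against 5.15% and 3.31% of all genes. There Il12rb2 fell by 0.74, Il7r by 0.64 and Il12rb1 by 0.47, while Il2rg rose by 0.61. Il23r, the specific chain of the IL-23 receptor, was 0.0134, 0.00758 and 0.0233 in gp33 libraries labelled KO and 0.0062, 0.0123 and 0.00722 in gp33 WT libraries, which was below the level for testing.

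Of 21 transcription factors reported to act on Il22, all were in the table and 9 were tested. Between the gp33 groups 3 were higher in libraries labelled KO and 0 lower, against 14.9% and 9.09% of all genes, with a list median of 0.15 against 0.003 over all genes. Stat3, which carries the signal of IL-6, IL-21 and IL-23, was 3.18, 3.71 and 2.81 in libraries labelled KO, against 2.15, 1.81 and 1.76 in WT libraries, a difference of 0.54 (SE 0.08, limma adjusted p = 0.000246). Stat5a, which carries the signal of IL-2 and IL-7, was 3.62, 3.71 and 3.09 in libraries labelled KO, against 1.43, 1.40 and 1.31 in WT libraries, a difference of 0.91 (SE 0.08, limma adjusted p = 1.38e-06). In both genes the groups did not overlap. Gata3, a factor of type 2 and CD8 T cells, was higher by 0.41 (SE 0.10, adjusted p = 0.00928), and that call ended without replicate 2 of the gp33 group labelled KO (adjusted p = 0.0506).

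With IC87114 in the libraries labelled KO, 5 of the 9 factors were lower than with gp33 alone and 0 higher, against 19.3% and 9.17% of all genes, with a list median of -0.23 against -0.04 over all genes. Stat3 was 1.5, 1.33 and 1.48 with the inhibitor and fell by 0.79 (SE 0.08, limma adjusted p = 6.00e-06). Stat5a was 0.948, 0.934 and 1.14 and fell by 1.16 (SE 0.08, limma adjusted p = 9.61e-08). Gata3 fell by 0.63 (adjusted p = 0.000362). Batf3 and Runx3 were also called, at -0.43 and -0.23, and both calls were fragile. That of Batf3 ended with a pseudocount of 0.1, with only the 6 libraries compared, or without replicate 1 or 3 of the gp33 group or replicate 1 of the inhibitor group labelled KO (adjusted p up to 0.149). That of Runx3 ended with no filter, plain moderation, a replicate block or any 1 of the 6 libraries left out (adjusted p up to 0.193).

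In WT libraries, where Il22 was near 0 with or without the inhibitor, 4 of the 9 factors were lower with gp33 and IC87114 than with gp33 alone and 0 higher, against 5.15% and 3.31% of all genes. They were Batf3 at -2.28, Tbx21 at -0.94, Stat5a at -0.41 and Batf at -0.38. The Batf call ended with only the 6 libraries compared or without replicate 2 of the gp33 WT group (limma adjusted p up to 0.0893). The response to IC87114 differed between genotypes in 5 of the 9 factors. It was more positive in libraries labelled KO for 3 and more negative for 2, against 3.27% and 6.47% of all genes, and Stat3 and Stat5a were the 2, at -0.68 and -0.75. The response to gp33 differed in 3 of the 9, more positive for 2 and more negative for 1, against 15.7% and 9.6% of all genes, and Stat5a (1.06) and Stat3 (0.40) were the more positive ones. The Stat3 difference in the response to gp33 was lost without replicate 2 of the gp33 group labelled KO or replicate 2 or 3 of the gp33 WT group (limma adjusted p up to 0.0583).

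Several factors that T helper cells need for Il22 or other effector cytokines had similar values in the gp33 groups. Irf4, a factor induced by T cell receptor signals, was 7.30, 7.17 and 6.92 in gp33 libraries labelled KO and 7.35, 7.55 and 6.55 in WT libraries, and the difference was -0.0013 (95% CI -0.33 to 0.33, limma adjusted p = 0.997). Batf, its partner on AP-1 composite sites, differed by 0.04 (95% CI -0.15 to 0.22, adjusted p = 0.820), and Tbx21, which encodes T-bet, by 0.07 (95% CI -0.16 to 0.30, adjusted p = 0.697). With IC87114 in libraries labelled KO, Irf4 was 8.80, 8.33 and 8.74, Batf was 3.96, 4.32 and 4.28 and Tbx21 was 2.38, 2.83 and 2.57, and none of the 3 was called against gp33 alone, at 0.24, -0.04 and -0.16. In the same inhibitor libraries Il22 was at 1.03% of its gp33 mean. These are RNA levels, and any part of these factors in the level of Il22 was not tested.

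Between genotypes with gp33 and IC87114, where Il22 was near 0 in both groups, 4 of the 9 factors were higher in libraries labelled KO and 0 lower, against 2.01% and 2.61% of all genes. They were Batf3 at 2.19 (SE 0.12, limma adjusted p = 1.73e-07), Tbx21 at 0.85 (SE 0.11, adjusted p = 0.000254), Irf4 at 0.75 (SE 0.15, adjusted p = 0.0101) and Batf at 0.38 (SE 0.09, adjusted p = 0.0233). The call for Irf4 was lost with a pseudocount of 0.1 or when only the 6 libraries compared were fitted (adjusted p 0.139 to 0.142). That for Batf was lost with only those 6 libraries or without any 1 of the inhibitor libraries labelled KO or WT replicate 1 (adjusted p up to 0.116). Among the receptors, Il7r (0.59), Il12rb2 (0.46) and Il21r (0.34) were higher. The Il21r call ended with only the 6 libraries compared or without replicate 1 or 2 of the inhibitor group labelled KO (adjusted p up to 0.145).

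Without peptide, 2 of the 9 factors were higher in libraries labelled KO and 0 lower, against 5.69% and 7.23% of all genes. They were Tbx21 at 0.55 and Gata3 at 0.33, and Batf, at 0.18 (limma adjusted p = 0.211), was not called. The Tbx21 call was lost when only the 6 libraries compared were fitted (adjusted p = 0.0639). The Gata3 call was lost with only those 6 libraries, a pseudocount of 0.1, a replicate block, or without replicate 2 or 3 of either group (adjusted p up to 0.196). Of the receptors, Il12rb1, the chain shared by the IL-12 and IL-23 receptors, was higher at 0.50, Il2rg at 0.36, and Il7r was lower at -0.40. The Il12rb1 call ended with only the 6 libraries fitted (adjusted p = 0.0817). The Il7r call ended with only those 6 libraries, a pseudocount of 0.1, a replicate block, or without replicate 1 or 2 labelled KO or replicate 1 or 3 of WT (adjusted p up to 0.193).

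Several factors known from IL-22-producing helper and innate cells were close to 0. Ahr, which encodes the aryl hydrocarbon receptor, was 0.0262, 0.0346 and 0.0236 in gp33 libraries labelled KO and 0.0357, 0.0492 and 0.0310 in gp33 WT libraries. Rora was at most 0.0113 and Maf at most 0.109 in gp33 libraries labelled KO. None of these 3 genes reached the level for testing, and for Ahr the 2 groups overlapped. Of 5 AHR target genes, only Tiparp, a target that feeds back on AHR, was tested. It differed by -0.10 between the gp33 groups (limma adjusted p = 0.621) and by 0.03 with the inhibitor in libraries labelled KO (adjusted p = 0.904).

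**Figure D3:**
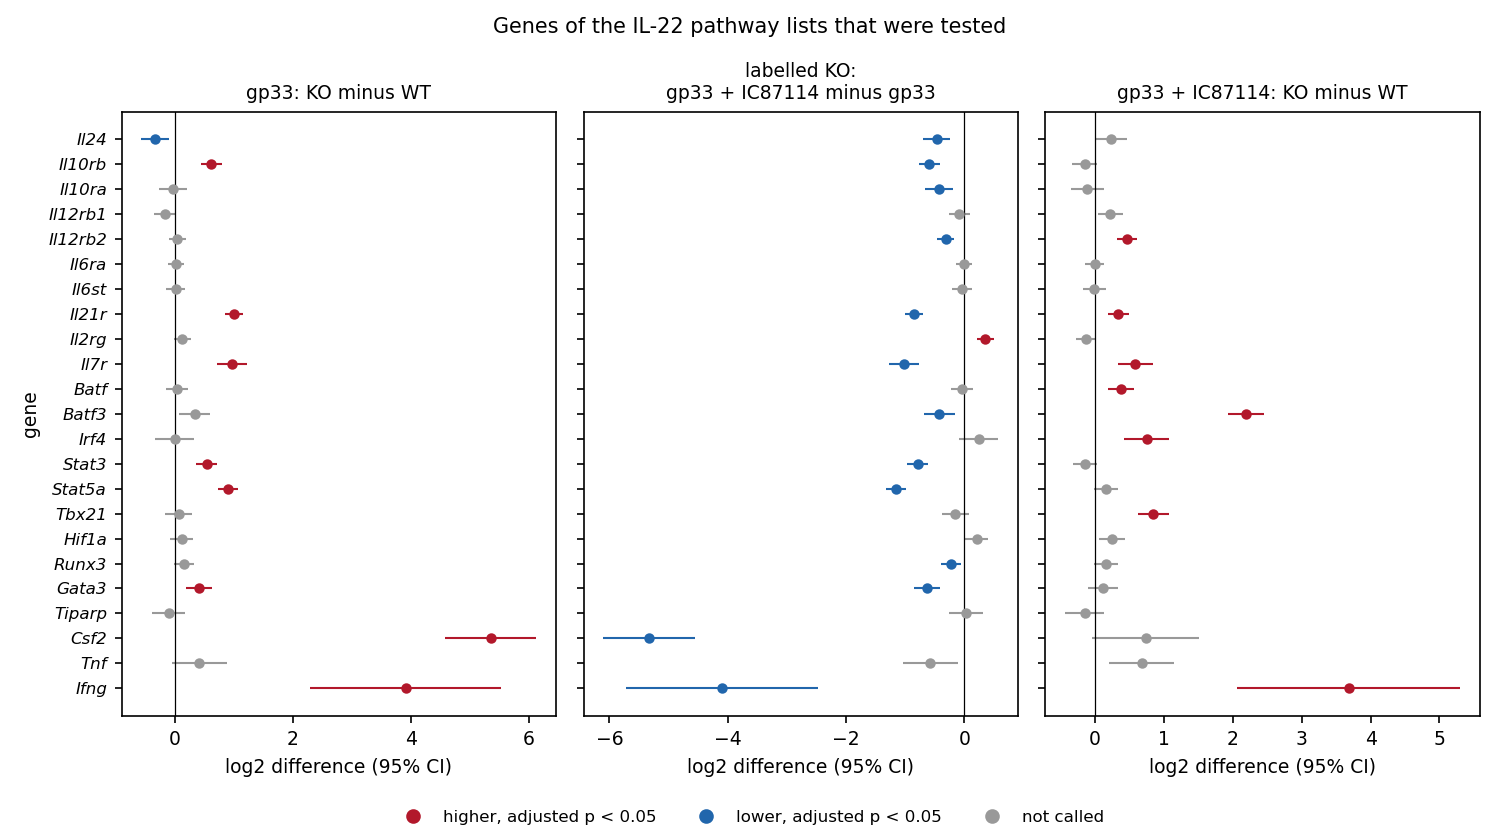
Differences in mean log2(value + 1) with 95% confidence intervals for the list genes that were tested, for gp33 libraries labelled KO minus WT (left), gp33 with IC87114 minus gp33 in libraries labelled KO (middle) and gp33 with IC87114, labelled KO minus WT (right). Red points were higher and blue points lower at an adjusted p under 0.05, and grey points were not called. Stat3, Stat5a, Il21r and Il10rb are red on the left and blue in the middle, and Irf4 and Tbx21 are grey in both and red on the right.

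Cytokines often made together with IL-22 were a mixed group. Of 8 listed genes of type 17 and type 22 T cells, 7 were in the table and 3 were tested. Between the gp33 groups Csf2 (GM-CSF) and Ifng were higher in libraries labelled KO, at 5.35 and 3.91, while Tnf, at 0.42 (limma adjusted p = 0.186), was not called. With IC87114 in libraries labelled KO, Csf2 fell by 5.33 and Ifng fell by 4.10, and Tnf was at -0.58 (adjusted p = 0.0600). In WT libraries the same differences were -0.71 for Csf2 (limma adjusted p = 0.237), -3.87 for Ifng (adjusted p = 0.00548) and -0.84 for Tnf (adjusted p = 0.0274). The Ifng response to IC87114 was not called different between genotypes (-0.23, adjusted p = 0.920). Without peptide, Ifng was higher in libraries labelled KO by 2.66 (adjusted p = 0.0316), a call that ended without any 1 WT library (up to 0.235). Ifng, whose gene lies beyond Il22b with 6 annotated genes in between, was 66.3, 43.5 and 45.1 with gp33 and IC87114 in libraries labelled KO, against 4.82, 2.97 and 1.83 in WT libraries. That difference of 3.68 was called (limma adjusted p = 0.0106), with an adjusted p = 0.0510 without replicate 1 of the inhibitor group labelled KO. In those 6 libraries Il22 was at most 0.220. Il17f, a cytokine of type 17 cells, was at most 0.0131 in gp33 libraries labelled KO. Il21 was 0.481, 0.991 and 0.865 in gp33 libraries labelled KO and 0.860, 1.03 and 0.655 in gp33 WT libraries, so these groups overlapped, and it was not tested. Il17a was not analysed here.

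**Figure D4:**
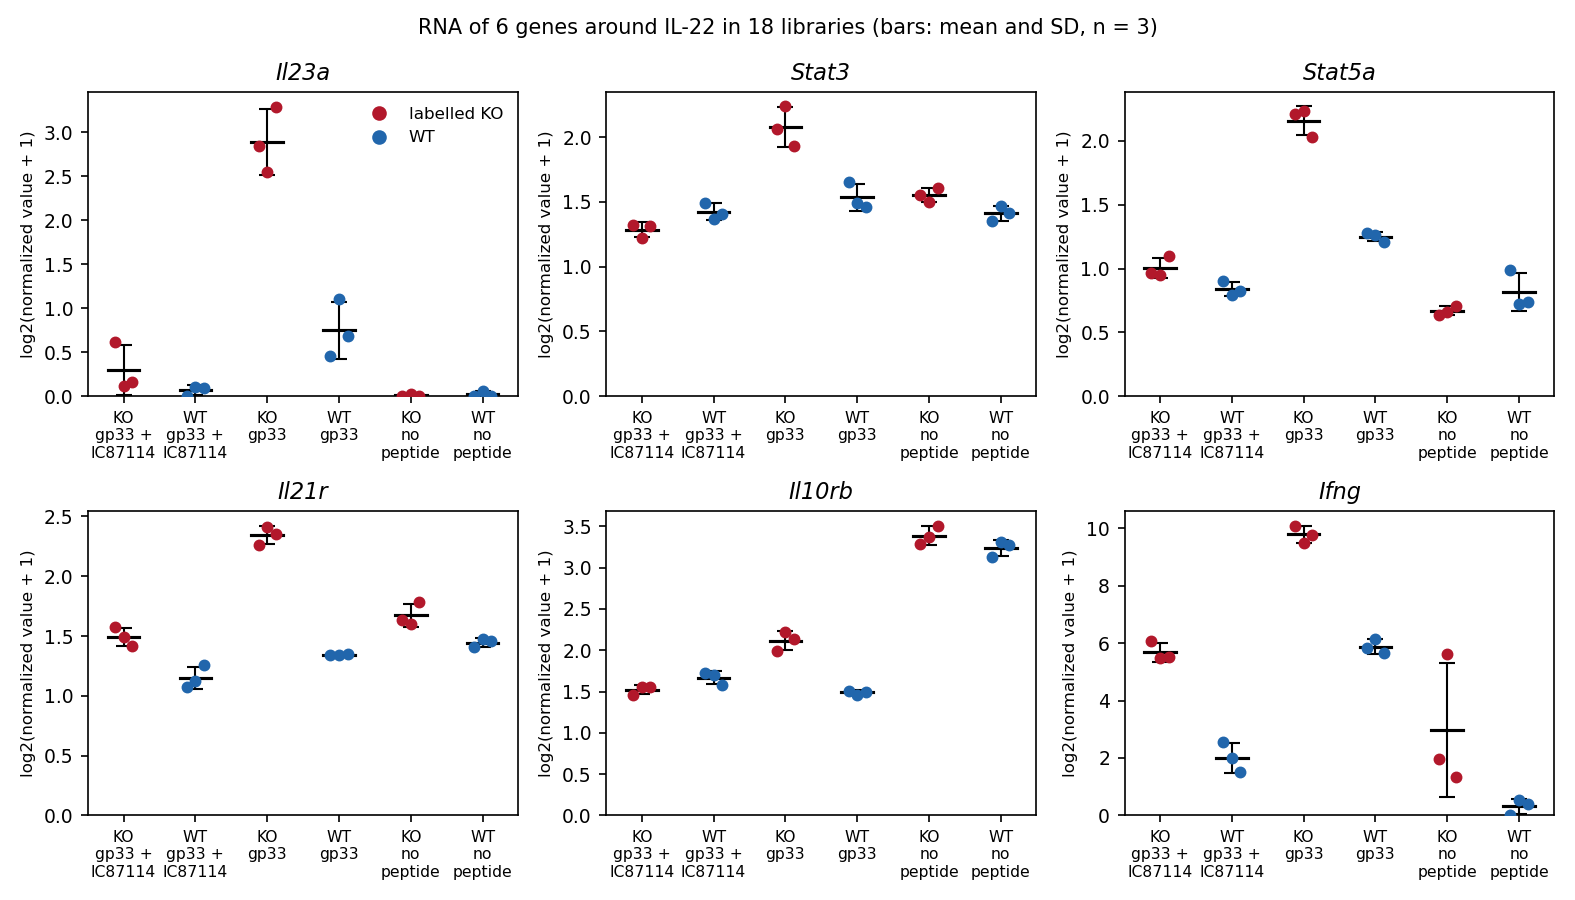
Il23a, Stat3, Stat5a, Il21r, Il10rb and Ifng in each of the 18 libraries, as log2(normalized value + 1), with groups along the horizontal axis. Points are libraries (red labelled KO, blue WT), and bars are the mean and SD of 3 libraries. In all 6 panels the gp33 libraries labelled KO are above the gp33 WT libraries, and Ifng differs from Il22 in being well above 0 in gp33 WT libraries and in inhibitor libraries labelled KO.

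Among the genes next to the pair in the reference annotation, only pseudogenes could be tested, and they were not called where the pair was high. How reads that fit more than 1 pseudogene were assigned is not given, so they may not be separate readings. Of 16 neighbours, 5 on each side of the pair and 6 between the 2 copies, 11 were in the table and 9 were tested, all of them pseudogenes. Between the gp33 groups 0 of the 9 were called (0 also at an unadjusted p under 0.05), where 24% of all genes were called in either direction, and their differences ran from -0.12 for Gm9030 to 0.05 for Gm9040. With IC87114 in libraries labelled KO, 0 of the 9 were called by limma, against 28.4% of all genes (2 at an unadjusted p under 0.05), and all 9 were a little higher than with gp33 alone, from 0.18 for Gm9040 to 0.42 for Gm9030. Mdm1, a protein-coding gene on the Il22 side, was 0.748, 0.768 and 0.788 in gp33 libraries labelled KO, against 0.473, 0.445 and 0.371 in WT libraries, which did not overlap but were too low to be tested.

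The genes whose pattern over the 6 groups was most like the pair were then listed. Each group mean was scaled from 0 in the lowest to 1 in the highest group, and likeness was the mean absolute difference of the scaled values over the 6 groups, among 715 candidate genes. Since this uses the values themselves, it is a description. Il22 and Il22b differed from each other by 0.0043. For Il22 the 8 nearest genes were Il23a (0.0517), Ccdc184 (0.0646), Gzmc (0.0768), Ccl22 (0.0775), Tnfsf11 (0.0781), Csf2 (0.0809), Plk2 (0.0849) and Dcxr (0.0853). The list for Il22b shared 7 of these 8 and had Marcks (0.0855) in place of Dcxr.

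The nearest gene by this measure was Il23a, which ranked 9 for both copies by Pearson's r over the 18 libraries. It encodes the p19 subunit of IL-23, a cytokine that induces IL-22 in T cells and innate lymphoid cells. In libraries labelled KO it was 0.535, 0.0797 and 0.115 with gp33 and IC87114, against 6.16, 4.83 and 8.79 with gp33 alone. In WT libraries it was 0, 0.0768 and 0.0638 with gp33 and IC87114, against 0.376, 1.15 and 0.600 with gp33 alone. The top group again stood apart, but gp33 WT libraries of Il23a were at 10.7% of the mean of gp33 libraries labelled KO, where Il22 was at 0.417%. Tnfsf11, which encodes the TNF family ligand RANKL, was 3.58, 4.89 and 3.70 with gp33 in libraries labelled KO, against 0.468, 0.460 and 0.388 in WT libraries. Ccl22, a chemokine, was 11.2, 18.2 and 19 with gp33 in libraries labelled KO, against 3.64, 0.0596 and 0.570 in WT libraries. Gzmc encodes a granzyme, Csf2 GM-CSF and Plk2 a kinase of the polo family. For all 9 of the named genes the inhibitor mean in libraries labelled KO was between 1.71% (Csf2) and 8% (Dcxr) of the gp33 mean.

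**Figure D5:**
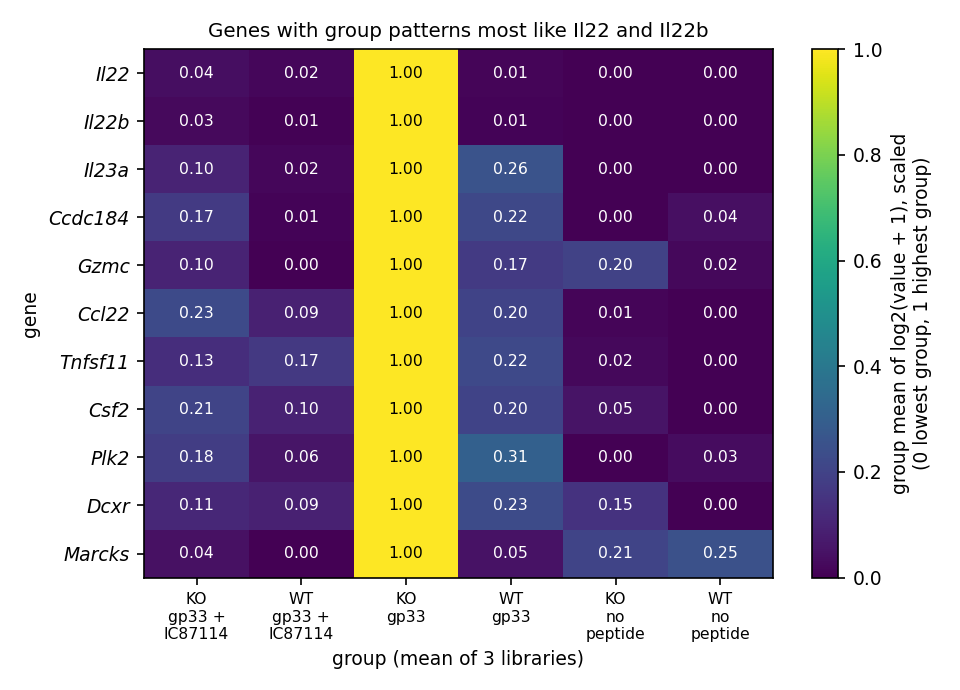
Group means of log2(value + 1) for Il22, Il22b and the 9 genes most like them, each scaled from 0 (its lowest group) to 1 (its highest group). Columns are the 6 groups of 3 libraries and numbers are the scaled values. All 11 genes are highest in gp33 libraries labelled KO, and in gp33 WT libraries Il22 and Il22b are at 0.01 where Plk2 is at 0.31 and Il23a at 0.26.

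Markers of other cells that make IL-22 were checked in the same libraries. Of the markers of group 3 innate lymphoid cells, 5 (Il23r, Il1r1, Kit, Ccr6 and Ncr1) summed to 0.0164 to 0.0238 with gp33 and IC87114 in libraries labelled KO, 0.0657 to 0.0834 in gp33 libraries labelled KO and 0.0409 to 0.0565 in gp33 WT libraries. The 4 CD4 T cell markers summed to 0.140 to 0.185, 0.802 to 1.06 and 0.534 to 0.602 in the same 3 groups. Both sums were thus higher in gp33 libraries labelled KO than in either of the other groups, with no overlap, at levels where each innate lymphoid marker was under 0.1 and Ncr1 was listed at 0 in the gp33 WT libraries. Cd4 itself was 0.0525 to 0.0848 in gp33 libraries labelled KO. Without peptide, where Il22 was listed at 0, 0.0101 and 0 in libraries labelled KO, the innate lymphoid sum was 0.297 to 1.14 and the CD4 sum 0.635 to 1.04 in those libraries.

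Of 6 gamma delta T cell markers 3 were in the table, and they summed to 14.4 to 20.2 with gp33 and IC87114 in libraries labelled KO, 13.1 to 17.3 in gp33 libraries labelled KO and 9.41 to 9.69 in gp33 WT libraries. Nearly all of that was Trdc. Sox13 was 0.00978 to 0.0153, 0.0300 to 0.0535 and 0.00609 to 0.0100 in the same 3 groups, and Blk was 0.00186 to 0.00195, 0.0110 to 0.0279 and 0.00916 to 0.0145. Both were lower with the inhibitor in libraries labelled KO than with gp33 alone, with no overlap.

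Sums of markers of NK, myeloid and B cells also differed between groups. The 6 NK cell markers summed to 1.82 to 4.31 with gp33 and IC87114 in libraries labelled KO, 5.78 to 7.28 in gp33 libraries labelled KO and 1.26 to 1.65 in gp33 WT libraries. The sum was higher in gp33 libraries labelled KO than in either other group, with no overlap, but its members were unlike. Gzma, the largest there, averaged 0.848, 4.11 and 1.01 in these 3 groups, and Klre1 averaged 0.0497, 0.768 and 0.0965. Fcer1g averaged 1.08, 1.06 and 0.216, and Tyrobp 0.742, 0.772 and 0.144. Both Fcer1g and Tyrobp overlapped between the inhibitor and gp33 groups labelled KO. Ncr1 and Klrb1c averaged at most 0.0086 and 0.026. The 8 myeloid and dendritic markers summed to 7.14 to 44.2, 5.96 to 18.1 and 0.361 to 3.04 in the same 3 groups. The 5 B cell markers summed to 3.28 to 4.58, 6.32 to 9.36 and 6.65 to 7.36, lower with the inhibitor and overlapping between the gp33 groups. In libraries labelled KO without peptide, the NK sum was 19.8 to 29.7 and the myeloid sum 75.4 to 159, the highest of the 6 groups for both. The B cell sum without peptide was 72.6 to 125 in libraries labelled KO and 158 to 190 in WT libraries, above every group given gp33. The part of any of these cells in the levels of Il22 and Il22b was not tested.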

How the data were processed

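RNA levels were measured in 18 libraries of mouse CD8 T cells, 3 in each of 6 groups, with genotype and treatment taken from the titles and treatment fields. The protocol text describes gp33 for every culture and was not followed for the cultures whose titles and treatment fields give no stimulation. The authors deposited 1 table of 23414 genes with log2 values normalized by a method that the sources used here do not state. The base 2 and the added 1 were inferred from the values and are an assumption. Libraries were made with a stranded polyA kit, per the labels' protocols. The submitters' processing notes name the builds GRCm 38 and GRCm 39 without their role, and the aligner and read counter are not given in the sources used here. Coordinates are therefore those of the printed sequences in GRCm38 and not of the authors' counting. The normalized values were fractional, and no sequencing depth or interval for counting error is given.

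Genes had to reach a normalized value of 1 in at least 3 libraries, and the 10257 that did were fitted with limma 3.58.1 and statmod 1.5.0 (R 4.3.3) on log2(value + 1), with a mean per group, a shared spread with 12 residual degrees of freedom, and trended, robust empirical Bayes moderation. Tests were 2-sided, and a gene was called when its p, adjusted by Benjamini-Hochberg over all genes tested, was under 0.05. The fit was tested on simulated data. No 2 libraries were identical. Replicate numbers were not treated as pairs, because deviations of same-numbered libraries did not correlate above 0.1 in all 3 numbers of any comparison. Within a genotype, library names of the same number share a letter across treatments, so those libraries may share an origin. For the inhibitor in libraries labelled KO, the 3 correlations were 0.195, 0.026 and 0.081. The replicate block joins same-numbered libraries of both genotypes, whose letters differ. Alternatives were a pseudocount of 0.1, other filters on low values, protein-coding genes alone rescaled, the libraries compared alone, the sum of both genes, plain moderation, a replicate block and leaving out each library.

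Il22, Il22b and the gene lists were chosen with earlier results of these data known. Besides the 2 genes and Pik3ip1, the text names the 3 members of each list with the smallest p in each comparison, a set of regulators and cytokines named whatever their values, the neighbours, and the 8 genes most like each copy. Likeness was computed among tested genes with group means at least 2 apart on the log2 scale. Some items of the lists are not reported here, and list counts are without them. Hif1a, Il6ra and Il6st appear only in a plot. Differences of Il22 and Il22b between groups where both were near 0 were planned as limma tests and are given without them. Sequences came from GENCODE M21 and RefSeq.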

Additional observations from a re-analysis of the deposited data

Results flagged for a closer look

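Genes of the IL-22 lists were picked out where the response to gp33 or to IC87114 differed between genotypes, tested as an interaction in the limma fit over all 10257 genes. Values are the response in libraries labelled KO minus that in WT libraries, in log2(value + 1). Of all genes, 15.7% were called more positive and 9.6% more negative for gp33, and 3.27% and 6.47% for IC87114.

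The response to gp33 against no peptide was more positive in libraries labelled KO for Csf2 (4.9997, limma adjusted p = 1.17e-05), Il7r (1.37, adjusted p = 4.53e-05), Stat5a (1.06, adjusted p = 1.64e-05), Il21r (0.77, adjusted p = 9.76e-05), Il10rb (0.47, adjusted p = 0.00913) and Stat3 (0.40, adjusted p = 0.0207). It was more negative for Il12rb1 (-0.66, limma adjusted p = 0.00130) and Tbx21 (-0.48, adjusted p = 0.0299). Il7r and Il10rb were lower with gp33 in both genotypes, by -3.20 and -1.28 in libraries labelled KO and -4.57 and -1.75 in WT. Il12rb1 and Tbx21 were higher with gp33 in both, by 0.45 and 1.22 in libraries labelled KO and 1.11 and 1.70 in WT. The Stat3 call ended without replicate 2 of the gp33 group labelled KO or replicate 2 or 3 of the gp33 WT group (adjusted p up to 0.0583). The Tbx21 call ended without any 1 of 8 libraries, replicates 2 and 3 of each of the groups without peptide and of the gp33 group labelled KO, and replicates 1 and 2 of the gp33 WT group (adjusted p up to 0.0775).

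The response to IC87114 was more negative in libraries labelled KO for Csf2 (-4.62, limma adjusted p = 5.73e-05), Il10rb (-0.77, adjusted p = 0.000895), Stat5a (-0.75, adjusted p = 0.000780), Stat3 (-0.68, adjusted p = 0.00204) and Il21r (-0.66, adjusted p = 0.000989). It was more positive for Batf3 (1.85, limma adjusted p = 1.11e-05), Tbx21 (0.78, adjusted p = 0.00469), Irf4 (0.75, adjusted p = 0.0413), Il24 (0.56, adjusted p = 0.0331) and Il12rb2 (0.42, adjusted p = 0.0109). Batf3, Tbx21, Il24 and Il12rb2 were lower with IC87114 in both genotypes. Their differences were -0.43, -0.16, -0.47 and -0.32 in libraries labelled KO and -2.28, -0.94, -1.03 and -0.74 in WT. The Irf4 call ended with a pseudocount of 0.1 or with no filter. It also ended without any 1 of the 12 libraries in the interaction other than replicates 1 and 3 of the inhibited WT group. Over all these settings the limma adjusted p was up to 0.228. The Il24 call ended without replicate 1 or 3 of the gp33 group labelled KO, replicate 2 or 3 of the gp33 WT group, any inhibitor library labelled KO, or replicate 3 of the inhibited WT group (adjusted p up to 0.0913). That of Il12rb2 was lost with a pseudocount of 0.1 (adjusted p = 0.0682). No explanation of these differences was tested.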

How the results depend on the processing

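Of 255 alternatives for Il22 and Il22b, 4 were counted as turning a sign and 12 as moving a described difference. The 4 were differences near 0: Il22b in libraries labelled KO minus WT without peptide was -0.00477 without replicate 3 labelled KO and -0.00195 without WT replicate 1 or 3 (range -0.00477 to 0.00520 over 6 libraries left out), and Il22 with gp33 and IC87114 was -0.0366 without replicate 2 labelled KO (range -0.0366 to 0.104). In the contrasts that chose the genes, a turned sign was counted only where the difference exceeded the SD between libraries. The Il22 difference for the inhibitor in WT libraries, 0.0130, was therefore not counted. It ran from -0.0402 to 0.0602 with 1 library left out. With a pseudocount of 0.1, the difference between gp33 libraries labelled KO and WT was 5.99 for Il22 and 4.35 for Il22b, that between gp33 and no peptide labelled KO was 6.29 and 4.52, and that between gp33 with IC87114 and gp33 labelled KO was -5.63 and -4.14, while Il22b in WT with IC87114 was -0.0876. With both genes summed these differences were 3.42, 3.49 and -3.34. Leaving out 1 library gave ranges of 2.90 to 3.29 for Il22 and 1.61 to 1.78 for Il22b between the gp33 groups, and of -3.22 to -2.84 and -1.76 to -1.58 for the inhibitor in libraries labelled KO. Il22b did not pass the filter of at least 5 in 3 libraries. The count of 255 alternatives is no measure of stability. Plain moderation, the replicate block, the libraries compared alone and the other filters leave a difference of group means unchanged. For differences between groups where both genes were near 0, only a turned sign or a changed call counted, with calls from tests not given here.

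Every group holds each replicate number, so the replicate number as a block cannot change a difference of group means. The 3.12 for Il22 between the gp33 groups is the same with the block for that reason and is no check. With the block, 2266 genes were called between the gp33 groups. The block ended the calls of Il7r (adjusted p = 0.0604), Gata3 (0.0545) and Tiparp (0.0618) without peptide and of Runx3 with IC87114 (0.0641). Of 1177 alternatives for the named genes, some of which cannot turn a direction, 104 ended a call and 0 turned a direction.

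Counts of called genes moved with the settings. Between the gp33 groups, 2457 became 1468 with the filter of at least 5, 3968 from the 6 libraries alone, and 1582 or 1605 without KO replicate 2 or WT replicate 3. For the inhibitor in libraries labelled KO, 2917 became 1736 and 4947 under the first 2 of these. With gp33 and IC87114, 474 became 109 from the 6 libraries alone and 261 to 294 without any 1 of the libraries labelled KO. For the inhibitor in WT, 868 became 263 from the 6 libraries alone and 433, 452 or 534 without gp33 WT replicate 1, 2 or 3. The genotype difference in the response to IC87114 had 999 calls, 660 with the filter of at least 5 and 569 to 648 without gp33 replicate 2 labelled KO, gp33 WT replicate 2 or 3 or any 1 inhibitor library labelled KO, and that in the response to gp33 had 2595, and 1429 with that filter. Without peptide, 1326 became 697, 466 and, without WT inhibitor replicate 2 (chosen after seeing the data), 2101. Rescaling on protein-coding genes changed the share of calls that were higher between the gp33 groups to 74.85% from a main 62.07%, with the inhibitor in libraries labelled KO to 14.09% from 32.26%, between genotypes with the inhibitor to 32.49% from 43.46% and without peptide to 28.44% from 44.04%. It moved the median of all genes by 0.11 between gp33 and no peptide labelled KO. By Pearson's r over the 18 libraries, 5 of the 8 genes most like Il22 and 4 of the 8 most like Il22b were the same. For both copies Tnfsf11 ranked 1 by r, Mdm2, which is in neither main list, ranked 2, and Il23a ranked 9. Depth is unknown, so how low a level would be detected is not known.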
